A study of Mus musculus with 12 samples.

Results

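The cell division machinery was followed here as a set of 37 mouse genes that code for regulators of entry into the cell cycle, for proteins that copy DNA and for proteins that part the chromosomes. The members were taken by name from a list, with older array names matched through accessions: Cdk1 appears on the array as Cdc2a, and Hjurp as 6430706D22Rik and A730008H23Rik. All 37 are on the array, out of 27597 genes or names in all. Of these members, 28 had a probe that could be tested, among 15226 tested genes. The samples were whole gastrocnemius, a calf muscle, of adult male CD1 mice, hybridised to 12 single-colour arrays. They form 4 groups of 3 arrays: control muscle of wild-type (WT) mice, WT muscle 14 days after denervation, control muscle of Smad4 knockout (KO) mice, and KO muscle 14 days after denervation. Smad4 is the partner that receptor-activated Smads of the TGF-beta and BMP pathways share. The labels state that each of the 3 experiments of a condition used different animals, but not which cells lost Smad4, which part of the gene was deleted, or whether the control muscle came from the same animal as the denervated muscle.

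In dividing cells the D cyclins with Cdk4 and Cdk6, and cyclin E with Cdk2, inactivate the retinoblastoma family of pocket proteins, which releases E2F factors to switch on genes for DNA replication. The Mcm proteins are then loaded onto DNA as the replicative helicase, and the mitotic cyclins, the Polo and Aurora kinases, the chromosomal passenger complex and the spindle checkpoint later drive and guard the parting of chromosomes. Muscle fibre nuclei have left the cell cycle, so in whole muscle dividing cells are as a rule satellite cells and cells between the fibres. In such bulk RNA, a lower level through fewer cells of a type cannot be told apart from a lower level through less RNA per cell.

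Promoters of cell cycle genes are known for E2F sites and CCAAT boxes, so the 150 bases before the start of 5 members are shown: Mcm6, Rrm2, Aurka and Hjurp, which had the largest differences among members with a promoter entry, and Mcm5 as a licensing gene with no call. Sequences are from RefSeq on GRCm38.p6, on the strand of the gene, and capitals mark matches to the E2F letters (TTTCCCGC, TTTCGCGC, TTTGCCGC or TTTGGCGC) or to CCAAT on either strand.
Mcm6, chr1:128359706-128359855, minus strand: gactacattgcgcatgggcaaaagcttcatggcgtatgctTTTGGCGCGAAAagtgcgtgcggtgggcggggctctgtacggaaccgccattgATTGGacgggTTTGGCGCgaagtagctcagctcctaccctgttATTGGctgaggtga
Mcm5, chr8:75109359-75109508, plus strand: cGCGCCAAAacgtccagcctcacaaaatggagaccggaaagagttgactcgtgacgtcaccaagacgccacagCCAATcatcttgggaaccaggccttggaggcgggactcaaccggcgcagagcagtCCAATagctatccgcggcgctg
Rrm2, chr12:24708104-24708253, plus strand: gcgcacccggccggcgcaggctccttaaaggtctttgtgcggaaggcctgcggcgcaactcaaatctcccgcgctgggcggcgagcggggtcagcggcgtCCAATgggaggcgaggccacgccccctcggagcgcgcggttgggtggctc
Aurka, chr2:172370571-172370720, minus strand: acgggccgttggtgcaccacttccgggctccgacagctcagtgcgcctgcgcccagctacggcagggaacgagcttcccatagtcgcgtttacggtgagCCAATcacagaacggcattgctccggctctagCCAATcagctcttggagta
Hjurp, chr1:88277580-88277729, minus strand: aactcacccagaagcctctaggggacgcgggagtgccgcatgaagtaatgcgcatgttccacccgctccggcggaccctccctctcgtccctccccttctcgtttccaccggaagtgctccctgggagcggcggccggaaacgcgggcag

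The Mcm6 window holds 3 E2F matches, 2 of which overlap each other, and 2 CCAAT boxes. Mcm5 has 2 E2F matches that overlap, of which the printed bases hold 1 whole, and 2 CCAAT boxes. Aurka has 2 CCAAT boxes, Rrm2 has 1, and the single CCAAT box of Hjurp lies upstream of the printed bases. Over 250 bases before the start, 21.2% of the 33 member promoters (of 31 genes with an entry) held an E2F match, against 1.86% of all 32851 promoters. CCAAT was found in 72.7% of member promoters against 33.8% of all, and the CHR letters TTTGAA in 18.2% against 16.0%. A match is a description of the letters, and Rb1 and Mcm4 are among the 6 members not matched to an entry.

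Levels are given as log2 of the processed signal minus the 75th percentile of the same array, so 0 is the level at that percentile of the array, and differences between groups are on the same log2 scale. On each array 49.9% to 56.4% of the probes passed the scanner software's mark for signal well above background, and no probe was saturated. The small number of arrays limits the precision. Smad4 itself differed between genotypes without overlap of the arrays and was lower in KO muscle, by 1.46 in control muscle (2.75-fold, limma adjusted p = 0.0185) and by 1.42 in denervated muscle (2.67-fold, adjusted p = 0.00159). The arrays lay on 4 slides, and none of the slides held all 4 groups.

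The other 9 listed genes had no probe that was well above background on all 3 arrays of any group, and were not tested. Cdk1 and Cdk2, the kinases of mitosis and of S phase entry, were not well above background on any array, nor were the mitotic kinases Aurkb and Bub1. Bub1b, which works in the spindle checkpoint, passed on 1 WT denervated and 2 KO denervated arrays. E2f1, the activator of replication genes, passed on 2 KO denervated arrays, and the topoisomerase Top2a on 1. Cyclin B1 (Ccnb1) passed on 1 WT control array and the helicase loader Cdc6 on 1 WT denervated array. Of the 28 tested members, 26 were well above background on all 12 arrays. Mki67 and Plk1 were so on 11 each, and the array they missed was in KO control muscle.

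Denervation of WT muscle changed 4 of the 28 members, 3 higher and 1 lower (14.3%), where 39.3% of all 15226 genes were called at an adjusted p under 0.05. In KO muscle 9 members changed, 8 higher and 1 lower (32.1%), against 46.9% of all genes. Whether these shares differ was not tested, and without KO control replicate 1 the KO count was 13. The median change of the members was 0.10 in WT (-0.02 without WT denervated replicate 1), where all genes had -0.02, and 0.33 in KO, where all genes had 0.00. By direction, 18.7% of all genes were called higher and 20.6% lower in WT, and 23.7% higher and 23.2% lower in KO. The 9 members called in either genotype were the 4 of WT (Rb1, Mcm6, Rrm2 and Aurka) with Hjurp, Tyms, Mcm4, Mcm7 and Pcna.

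**Figure D1:**
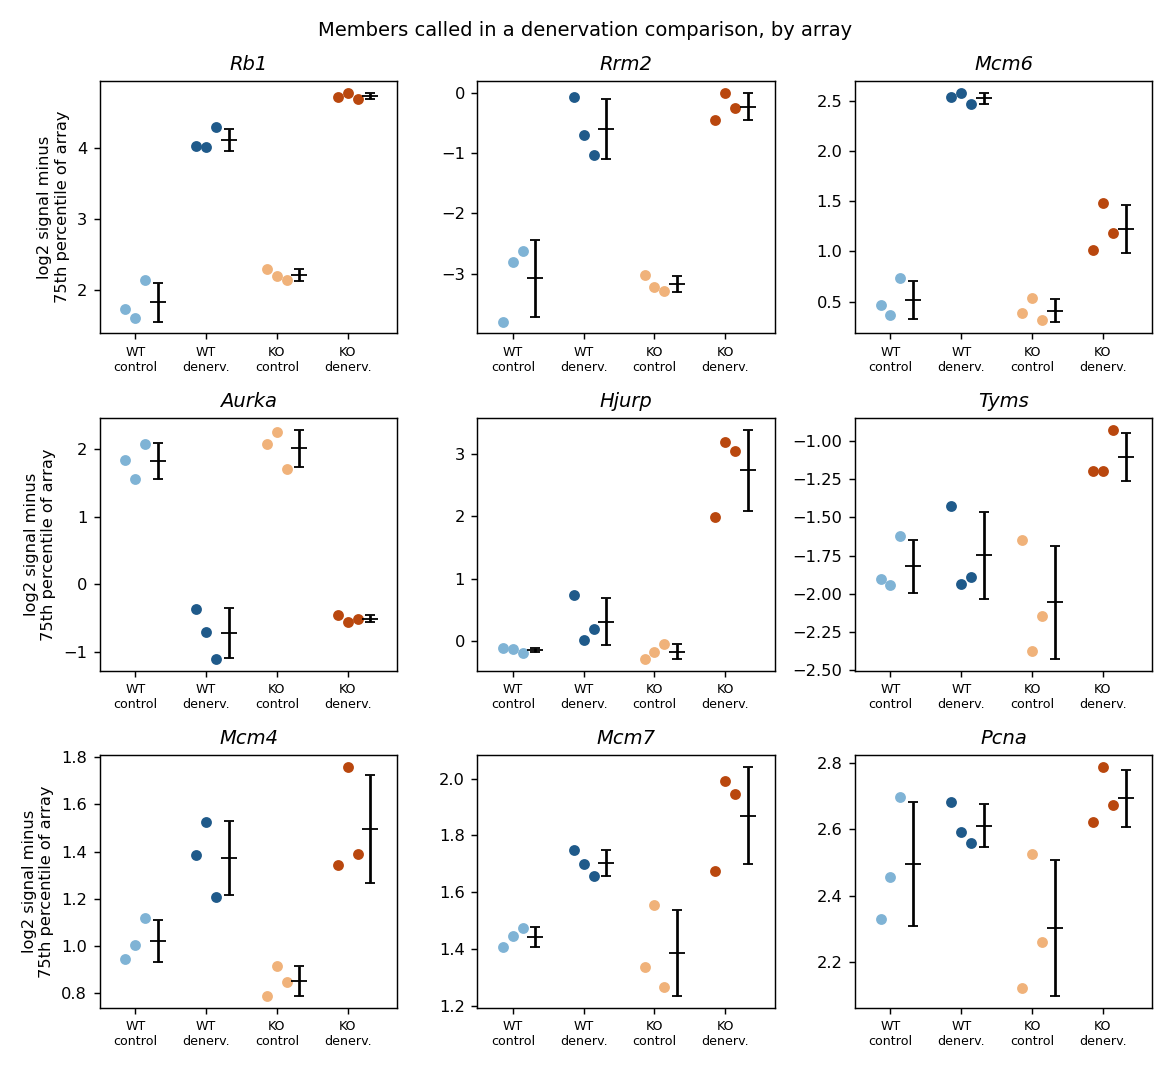
Level of the 9 members called in a denervation comparison, on each of 12 arrays (points, in log2 units relative to the 75th percentile of the array), with the mean and SD of 3 arrays beside each group. Axes differ between panels and do not start at 0. Rb1 and Rrm2 are high and Aurka is low on all 6 denervated arrays, Mcm6 is highest on the WT denervated arrays, and Hjurp is highest on the KO denervated arrays.

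Among regulators of entry into S phase, the change was in Rb1, the retinoblastoma protein that holds E2F factors in check. Its probe lies at chr14:71929755-71929814 (minus strand, mm8). Rb1 stood at 1.72, 1.61 and 2.13 on the WT control arrays and at 4.03, 4.01 and 4.29 on the WT denervated arrays. In KO muscle the values were 2.29, 2.19 and 2.13 on control and 4.72, 4.78 and 4.69 on denervated arrays. Every denervated array was above every control array, and the KO denervated arrays were above the WT denervated arrays. Rb1 rose by 2.29 ± 0.16 (SE, 4.88-fold, adjusted p = 1.66e-06) in WT and by 2.53 ± 0.16 (5.76-fold, adjusted p = 7.42e-07) in KO muscle. Within single slides the rise was 2.31 in WT, and 2.56 and 2.49 in KO muscle. A second Rb1 probe was well above background on all 6 denervated arrays but on only 1 control array.

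Rbl1, the pocket protein related to Rb1, lay between -2.30 and -1.64 on all 12 arrays and was not called, with differences of 0.17 ± 0.14 in WT and 0.32 ± 0.14 in KO (adjusted p = 0.357 and 0.0785). None of the 6 tested G1 cyclins and kinases was called in any comparison. Cyclin D1 (Ccnd1) differed with denervation by -0.33 ± 0.24 in WT and -0.08 ± 0.24 in KO. Cyclin D2 (Ccnd2) differed by -0.36 ± 0.32 and -0.39 ± 0.32, and its 3 probes had the same sign. Cyclin D3 (Ccnd3) differed by 0.24 ± 0.19 and 0.35 ± 0.19. For Cdk4, the main partner of the D cyclins, the differences were -0.15 ± 0.19 and -0.27 ± 0.19, and for its relative Cdk6 they were 0.28 ± 0.19 and 0.22 ± 0.19. Cyclin E1 (Ccne1) differed by -0.46 ± 0.23 and -0.13 ± 0.23. The groups of arrays overlapped for each of these 6 genes in both genotypes.

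The replicative helicase is a ring of 6 Mcm proteins, and its subunits did not move as a unit. Mcm6 (probe at chr1:130159147-130159206, minus strand, mm8) stood at 0.46, 0.37 and 0.73 on WT control arrays and at 2.54, 2.58 and 2.47 on WT denervated arrays. On KO arrays it was 0.38, 0.53 and 0.31 in control and 1.01, 1.49 and 1.18 in denervated muscle. Both denervated groups lay above all control arrays and apart from each other, and denervated WT muscle was highest. The WT and KO control arrays overlapped. Mcm6 rose by 2.01 ± 0.16 (4.01-fold, adjusted p = 3.84e-06) in WT and by 0.82 ± 0.16 (1.76-fold, adjusted p = 0.00141) in KO muscle. After denervation it was thus 2.46-fold lower in KO than in WT (-1.30 ± 0.16, adjusted p = 0.00195), and the difference within slides was -1.52 and -1.04. The test of the difference between the rises gave -1.19 ± 0.22 with an adjusted p of 0.0784, which does not pass. That p was 0.0394 after quantile normalization and 0.0485 in the authors' deposited table of processed values. With normexp background correction the KO rise (adjusted p = 0.0673) and the KO difference (adjusted p = 0.274) were no longer called.

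The 5 other helicase subunits had smaller differences. Mcm4 stood at 0.79, 0.92 and 0.85 on KO control and 1.34, 1.76 and 1.39 on KO denervated arrays, without overlap, and rose by 0.65 ± 0.15 (1.56-fold, adjusted p = 0.00416). In WT its arrays also did not overlap, but the difference of 0.35 ± 0.15 was not called (adjusted p = 0.0813). Mcm7 rose in KO by 0.48 ± 0.13 (1.40-fold, adjusted p = 0.0116), from 1.34, 1.56 and 1.27 to 1.67, 1.99 and 1.95, and differed by 0.26 ± 0.13 in WT (adjusted p = 0.145). The Mcm4 and Mcm7 calls were lost with normexp background correction (adjusted p = 0.183 and 0.245). Mcm2 differed by -0.56 ± 0.35 in WT and -0.48 ± 0.35 in KO, and Mcm3 by 0.09 ± 0.18 and 0.26 ± 0.18. Mcm5 lay at -2.23, -2.01 and -2.25 on WT control and -2.31, -3.16 and -3.12 on WT denervated arrays, a difference of -0.70 ± 0.30 (adjusted p = 0.085), against 0.07 ± 0.30 in KO. With the replicate number as a block in WT, Mcm5 and the checkpoint target Cdc20 were called as well, which made 6 members.

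Genes of nucleotide supply and of the replication fork rose in part. Rrm2, the regulated subunit of ribonucleotide reductase, which makes deoxynucleotides, lay at -3.80, -2.81 and -2.63 on WT control arrays and at -0.07, -0.70 and -1.04 on WT denervated arrays. In KO muscle it lay at -3.02, -3.21 and -3.28 on control arrays and between -0.45 and 0.00 on the denervated arrays. All 6 denervated arrays were above all 6 control arrays. Rrm2 rose by 2.48 ± 0.31 (5.56-fold, adjusted p = 0.000118) in WT and by 2.94 ± 0.31 (7.65-fold, adjusted p = 2.64e-05) in KO muscle. Its partner Rrm1, the large subunit, lay between 2.00 and 2.52 on all arrays and differed by -0.02 ± 0.14 and -0.18 ± 0.14, neither of which was called.

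Tyms, the enzyme that makes thymidylate, lay at -1.65, -2.37 and -2.15 on KO control arrays and at -1.20, -1.19 and -0.93 on KO denervated arrays. The groups did not overlap, and Tyms rose by 0.95 ± 0.21 (1.93-fold, adjusted p = 0.00338), against a difference of 0.07 ± 0.21 in WT (adjusted p = 0.81). The second Tyms probe above background differed by 0.92 in KO and 0.19 in WT. The test of the difference between genotypes for Tyms gave 0.88 ± 0.30 and did not pass (adjusted p = 0.364). Pcna, the sliding clamp of the fork, rose in KO by 0.39 ± 0.15 (1.31-fold, adjusted p = 0.0468), a call lost in 10 of 12 fits that left out 1 array each (adjusted p from 0.0514 to 0.154) and kept without WT control replicate 3 or KO control replicate 2. The call for Tyms was lost with normexp background correction (adjusted p = 0.12).

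**Figure D2:**
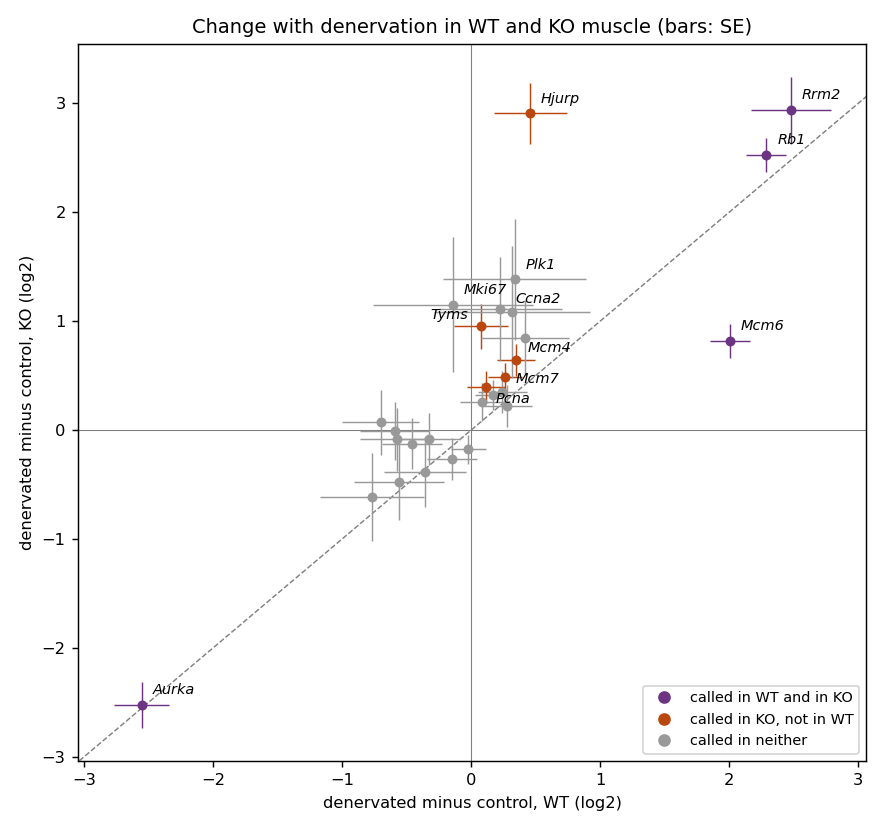
Change with denervation (denervated minus control, log2) of the 28 tested members in WT (horizontal axis) and KO muscle (vertical axis), with SE as bars and a dashed line where both are equal. Rb1, Rrm2 and Aurka lie near the line, Hjurp lies far above it (0.46 in WT, 2.91 in KO) and Mcm6 below it (2.01 and 0.82).

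Among the mitotic kinases Aurka, which acts at the spindle poles, was the member that fell. Its probe lies at chr2:172047439-172047498 (minus strand, mm8). It is the only Aurka probe on the array, and Mcm6 and Rrm2 also have a single probe each. Aurka stood at 1.85, 1.56 and 2.08 on WT control and -0.37, -0.71 and -1.10 on WT denervated arrays. On KO arrays it was 2.09, 2.25 and 1.72 in control and -0.46, -0.56 and -0.51 in denervated muscle. All 6 denervated arrays were below all 6 control arrays, and the WT and KO ranges overlapped within each condition. It fell by 2.56 ± 0.21 on the log2 scale (5.88-fold, adjusted p = 6.33e-06) in WT and by 2.53 ± 0.21 (5.77-fold, adjusted p = 5.93e-06) in KO muscle. Within slides the difference was -2.22 in WT, and -2.23 and -2.65 in KO.

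The remaining mitotic members stayed under the threshold in both genotypes, apart from Hjurp. Mki67, the chromosome surface protein used as a marker of dividing cells, lay at -2.44, -1.68 and -1.62 on WT control arrays and -1.56, -2.09 and -2.53 on WT denervated arrays. In KO muscle it lay at -0.57, -3.65 and -2.12 on control arrays and at -0.51, -1.60 and -0.79 on denervated arrays. KO control replicate 1 thus reached the level of the KO denervated arrays, and the groups overlapped. Mki67 differed by -0.14 ± 0.62 in WT and by 1.15 ± 0.62 in KO (adjusted p = 0.873 and 0.149).

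Plk1, the Polo-like kinase of mitotic entry, lay at -1.92, -4.83 and -3.11 on KO control arrays and at -1.43, -2.39 and -1.88 on KO denervated arrays. Its KO difference was 1.38 ± 0.55 (adjusted p = 0.0598), against 0.34 ± 0.55 in WT (adjusted p = 0.662). Cyclin A2 (Ccna2), which acts in S phase and early mitosis, differed by 1.11 ± 0.48 in KO (adjusted p = 0.0767) and cyclin B2 (Ccnb2) by 0.85 ± 0.34 (adjusted p = 0.0608). Birc5 (survivin), of the chromosomal passenger complex, differed by 1.08 ± 0.61 (adjusted p = 0.163), with -0.20, -3.30 and -2.35 on KO control and -0.53, -1.29 and -0.79 on KO denervated arrays. For Plk1, Ccna2, Ccnb2 and Birc5 alike, KO control replicate 1 lay within or above the range of the KO denervated arrays.

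The 10 tested mitotic and centromere members shifted together by array. WT denervated replicate 1 was the highest of its group for 9 of them and WT denervated replicate 3 the lowest for 9. KO denervated replicate 1 was the highest for 9 and KO denervated replicate 2 the lowest for 8. KO control replicate 1 was the highest for 8, and it is the only control array on slide 4, which was scanned on another day than the other slides. WT denervated replicate 3 and KO denervated replicate 2, the lowest of their groups, lay on slide 4 too, as did WT denervated replicate 2. Within that slide the KO difference with denervation was -1.03 for Mki67, -1.08 for Birc5, -0.48 for Plk1 and -0.30 for Ccna2. Within slide 3 the differences were 1.33, 1.56, 1.22 and 1.48 in the same order. The direction thus turned between slides, as it did for Ccnb2. Each of these slides held 1 KO control and 1 KO denervated array, so slide and single array cannot be told apart.

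Without KO control replicate 1, 13 members were called for denervation in KO muscle: Mki67, Ccna2, Ccnb2, Plk1 and Birc5 were added and Pcna was lost. The median KO difference of the 10 genes was 0.97 with all arrays, 1.44 without KO control replicate 1 and 0.39 without KO control replicate 2. On the array of KO control replicate 1 the summed linear level of 14 macrophage markers was 68.1, against 49.2 and 29.0 on the other KO control arrays. For 11 fibroblast markers the sums were 370, 218 and 230 in the same order. For satellite cell and myoblast markers they were 12.8, 16.1 and 10.6. KO control replicate 1 was lowest for endothelial (57.3, 61.1 and 61.9), smooth muscle and pericyte (268, 308 and 321) and Schwann cell markers (16.8, 18.4 and 34.3). It was also lowest for muscle fibre genes, and highest for granulocyte and mast cell and for T and B cell markers. For adipocyte and erythroid genes it lay in between. The part of any of these cells in the high mitotic values was not tested. The SD around the group means was 0.89 for Mki67, 0.86 for Birc5 and 0.79 for Plk1, where the median over all genes was 0.25.

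**Figure D3:**
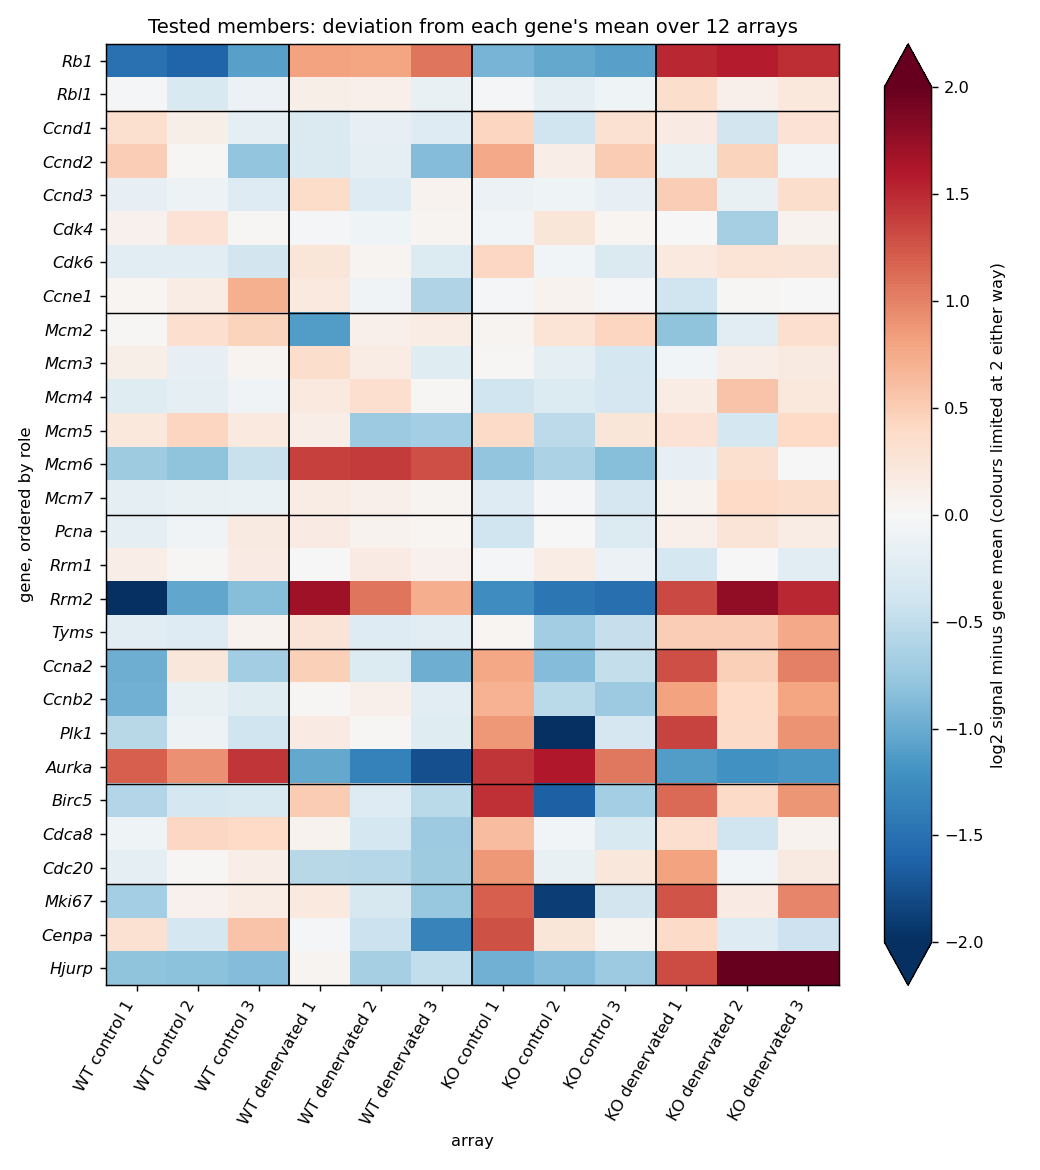
Deviation of each tested member (rows, ordered by role, with horizontal lines between roles) from its mean over 12 arrays (columns, with vertical lines between groups), in log2 units, with colours limited at 2 either way. Rb1 and Rrm2 turn from blue to red with denervation and Aurka from red to blue, Mcm6 is deep red on WT denervated arrays alone, and Ccna2, Ccnb2, Plk1, Birc5 and Mki67 are red on KO control replicate 1 as well as on KO denervated arrays.

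Cdca8 (borealin), also of the passenger complex, differed by -0.58 ± 0.29 in WT and -0.09 ± 0.29 in KO, and Cenpa, the histone of centromeres, by -0.77 ± 0.41 and -0.62 ± 0.41. Cdc20, which activates the ubiquitin ligase that ends mitosis, averaged -1.82 ± 0.17 (SD, n = 3) on WT control and -2.41 ± 0.09 on WT denervated arrays. Those groups did not overlap, yet the difference of -0.59 ± 0.27 was not called (adjusted p = 0.0982), and the KO difference was -0.01 ± 0.27.

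Hjurp, the chaperone that deposits Cenpa at centromeres, was the member that differed most between genotypes. Its main probe lies at chr1:90094786-90094845 (minus strand, mm8) and is named 6430706D22Rik on the array. Hjurp stood at -0.11, -0.13 and -0.19 on WT control arrays, 0.73, 0.01 and 0.19 on WT denervated arrays and -0.28, -0.18 and -0.04 on KO control arrays. On KO denervated arrays it stood at 1.99, 3.18 and 3.04, above all 9 other arrays. It rose in KO muscle by 2.91 ± 0.28 (7.50-fold, adjusted p = 1.52e-05), and by 3.08 and 3.46 within slides. The WT difference of 0.46 ± 0.28 was not called (adjusted p = 0.227), although its groups did not overlap.

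In denervated muscle Hjurp was 5.37-fold higher in KO than in WT (2.43 ± 0.28, adjusted p = 0.00166), with 1.26 and 3.08 within slides. On the main probe the test of the difference between its changes in KO and WT gave 2.45 ± 0.40 (adjusted p = 0.0444). That call was kept without WT denervated replicate 1 or KO denervated replicate 1. It was lost without any of the 10 other arrays (adjusted p from 0.0856 to 0.126) and with the replicate number as a block within genotype or across genotypes (adjusted p = 0.0679 and 0.0885). With the slide as a fixed block it was lost (adjusted p = 0.142), and with the slide as a random block it was kept (adjusted p = 0.0373). A second probe was also well above background on all 12 arrays, with a mean of -1.47 ± 0.19 (SD, n = 3) on control and -0.46 ± 0.30 on denervated WT arrays. Its KO means were -1.16 ± 0.49 without and 1.59 ± 0.68 with denervation. On that probe the WT difference was 1.02, larger than on the main probe, the KO difference 2.75 and the difference between them 1.73. The call for the main probe was lost when the kept probes of a gene were averaged (1.91, adjusted p = 0.0928). The other 4 Hjurp probes were not well above background on some or all arrays of the other groups. Those of them kept for the average, both named A730008H23Rik, had KO differences of 2.94 and 0.70. Their differences between the genotypes' changes were 2.56 and 0.91. The probe at chr1:90089799-90089858 lies on the plus strand, opposite to the main probe, and was not kept. Probes named A730008H23Rik are placed on an unassigned sequence in mm8, so it is less certain that they measure this gene.

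Comparisons of KO with WT asked what the loss of Smad4 did in each condition. In control muscle no member was called, and 1 of 15226 genes was (0.00657%), which was Smad4. At an unadjusted p under 0.05, 1 member (Rb1, 0.38 ± 0.16) and 617 genes passed in limma's fit. In denervated muscle 2 of 28 members were called (7.14%), Hjurp higher and Mcm6 lower, against 2.19% of all genes. Called higher were 0.959% of all genes and called lower 1.23%. Of the 333 calls 146 were higher, and 117 of 363 after scaling to the array median. The median over the members was 0.30, against -0.01 over all genes, and 24 of 28 differed upward, against 48.8% of all genes. The median of the members was 0.16 without WT denervated replicate 3 and 0.47 without WT denervated replicate 1. In the same comparison 13 of 14 macrophage markers (median 0.31) and 10 of 11 fibroblast markers (median 0.36) differed upward, and 0 of 10 muscle fibre genes did (median -0.38). Upward too were 7 of 11 satellite cell, 8 of 11 endothelial, 5 of 7 smooth muscle and pericyte and 5 of 5 adipocyte markers. The remaining lists had 5 of 10 Schwann cell and 2 of 6 T and B cell markers upward. For granulocyte and mast cell markers it was 3 of 9, and for erythroid genes 0 of 3. The part of these cells in the members' values was not tested. For the difference between the genotypes' changes, 1 member (Hjurp) was called, against 0.184% of all genes, with a median over the members of 0.26 against 0.01 over all genes. These medians share the KO denervated arrays. Members were chosen with earlier results of these data known. Their shares and medians, here and for denervation, are thus not independent of the data when set against all genes.

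Rb1 was above its WT level on all 3 KO denervated arrays, by 0.62 ± 0.16 (1.54-fold), and did not pass (adjusted p = 0.069). It was called after quantile normalization, in the authors' deposited table and without WT control replicate 3. These values are from the main Rb1 probe. The second Rb1 probe, well above background on every denervated array, differed by 0.18, with -2.43 ± 0.37 (SD, n = 3) in WT and -2.25 ± 0.22 in KO denervated muscle. Cdc20 differed by 0.92 ± 0.27 (adjusted p = 0.113), Tyms by 0.64 ± 0.21 (adjusted p = 0.156) and Ccna2 by 1.18 ± 0.48 (adjusted p = 0.252), in each case without overlap of the arrays. For Mki67 the difference was 1.09 with a 95% interval from -0.27 to 2.46, so that neither no difference nor a several-fold one lies outside it.

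**Figure D4:**
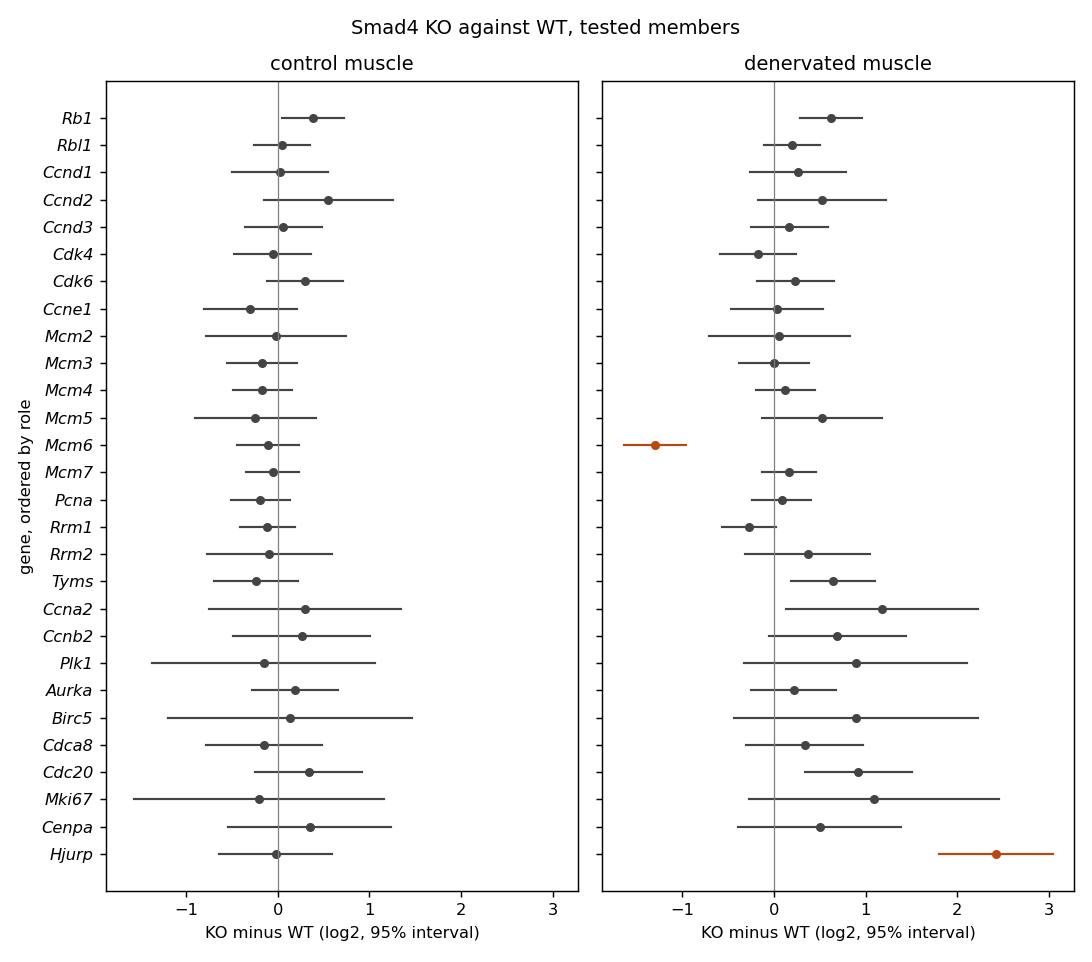
KO minus WT (log2, points) with 95% intervals (lines) for the 28 tested members, in control muscle (left) and denervated muscle (right). Called members are orange: none in control muscle, and Mcm6 (-1.30) and Hjurp (2.43) in denervated muscle.

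Other genes of the cycle were counted from further lists. Of all genes, 18.7% were called higher and 20.6% lower with denervation in WT, and 23.7% and 23.2% in KO muscle. Between genotypes in denervated muscle 2.19% of all genes were called, and for the difference between the genotypes' changes 0.184%. Of 19 tested inhibitors and genes of the p53 arm, 5 rose and 6 fell in WT, and 5 rose and 5 fell in KO muscle, with medians of -0.13 and 0.00. Cdkn1a (p21), the inhibitor of cyclin-dependent kinases that p53 induces, rose by 5.04 ± 0.29 in WT and 4.79 ± 0.29 in KO (adjusted p = 5.49e-07 and 7.39e-07). Gadd45a, a growth arrest and stress gene, rose by 3.92 ± 0.19 and 4.20 ± 0.19. The antiproliferative gene Btg1 rose by 1.92 ± 0.35 in WT and 2.36 ± 0.35 in KO, and cyclin G1 (Ccng1), a target of p53, fell by 1.05 ± 0.12 and by 0.94 ± 0.12.

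Cdkn1c (p57), an inhibitor found in cells that leave the cycle, rose in KO by 3.41 ± 0.27 (adjusted p = 3.73e-06), while its WT difference of 0.73 ± 0.27 missed the threshold (adjusted p = 0.0501). It was higher in KO than in WT denervated muscle by 3.06 ± 0.27 (adjusted p = 0.000402), and the test of the difference between the genotypes' changes passed at 2.68 ± 0.38 (adjusted p = 0.0296). Mdm2, the ligase that limits p53, rose by 0.85 ± 0.16 in WT and 1.74 ± 0.16 in KO, and was higher in KO than in WT denervated muscle by 0.87 ± 0.16 (adjusted p = 0.0187). No other gene of this list was called between genotypes.

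Of 77 further cell cycle genes 51 were tested: 7 rose and 13 fell in WT, with a median of -0.11, and 16 rose and 7 fell in KO muscle, with a median of 0.10. Nek2, counted as risen in WT, was well above background on 1 WT denervated array and on no control array. Its WT difference thus lies largely at background. Thymidine kinase Tk1 fell by 2.84 ± 0.26 in WT and by 2.52 ± 0.26 in KO muscle. The licensing factor Cdt1 rose by 1.15 ± 0.17 and 1.35 ± 0.17, whereas its inhibitor geminin (Gmnn) fell by 0.85 ± 0.20 and 1.40 ± 0.20. The kinetochore gene Spc25 rose by 2.63 ± 0.31 in WT and by 1.34 ± 0.31 in KO.

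Ckap2, a spindle protein, had a tested probe that was not well above background on any control array. It was at least 2.10-fold higher after denervation in WT (adjusted p = 2.37e-05) and at least 6.32-fold higher in KO muscle (adjusted p = 3.33e-06). These bounds set each dim array at its lowest signal well above background, and another Ckap2 probe passed on 1 WT control array. Stmn1, which destabilises microtubules, fell by 0.66 ± 0.19 in WT and rose by 1.03 ± 0.19 in KO muscle, and the test of that difference passed at 1.70 ± 0.27 (adjusted p = 0.04). Stmn1 and Ckap2 were the 2 of 51 tested genes of this list called between KO and WT in denervated muscle, by 1.65 ± 0.19 and 1.80 ± 0.28. Of all genes 2.19% were called there.

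A further list held E2F factors and subunits of the DREAM complex, which represses cell cycle genes in resting cells. It also held genes outside that complex, such as Cdk7, Cdk9, Myc, Skp2 and Cdc27. Of its 27 tested genes 4 rose and 2 fell in WT, and 6 rose and 4 fell in KO muscle, with medians of 0.22 and 0.20. The repressor E2f8 had no probe well above background on any control array, and was at least 4.65-fold higher in WT and at least 3.83-fold higher in KO denervated muscle. E2f2, an activating E2F, rose by 1.79 ± 0.22 and 2.25 ± 0.22, and the DREAM subunit Lin37 by 0.72 ± 0.14 and 0.74 ± 0.14. The repressor E2f6 fell by 1.00 ± 0.23 in both genotypes. Rbl2, the pocket protein of DREAM in resting cells, fell by 0.70 ± 0.15 in KO and differed by -0.19 ± 0.15 in WT. No gene of this list was called between genotypes.

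Markers of other cells in the muscle were counted for denervation too, where 39.3% of all genes were called in WT and 46.9% in KO muscle. Called higher were 18.7% of all genes in WT and 23.7% in KO, and called lower 20.6% and 23.2%. Whether the shares of the marker lists differ from these was not tested. Of 14 macrophage markers 3 rose in WT and 8 in KO muscle, and none fell. Their summed linear level was 35.1 to 53.2 in WT control, 54.9 to 64.5 in WT denervated, 29.0 to 68.1 in KO control and 61.3 to 89.2 in KO denervated muscle. Cd68 was among those that rose, by 2.00 ± 0.34 in WT and 1.26 ± 0.34 in KO. Of 11 satellite cell and myoblast markers 3 rose in WT and 4 in KO muscle, and Fgfr4 was higher in KO than in WT denervated muscle (0.91 ± 0.16, adjusted p = 0.0162). Myf5, counted in both genotypes, was well above background on the KO denervated arrays alone. Its WT difference thus lies at background, and its KO rise was bounded at 1.01-fold. The sums over these markers were 12.1 to 13.8, 23.4 to 34.8, 10.6 to 16.1 and 13.1 to 29.4 in the same order of groups. Linear sums weigh the brightest genes most. In WT denervated muscle these were Lyz2 among macrophage markers (mean 5.34) and Myod1 among satellite cell markers (mean 3.74). Pax7, which defines satellite cells, was not called (-0.26 ± 0.46 and -0.87 ± 0.46). Of 11 endothelial markers 9 fell in WT and 10 in KO muscle. The part of changed cell numbers in the values of the cell cycle genes was not tested.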

How the data were processed

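The files deposited for each array give spot intensity as read by Agilent Feature Extraction (10.7.3.1 per the file headers, 10.5.1.1 per the submitters' processing notes), background-subtracted and not normalized between arrays. The authors' deposited table of processed values holds intensity that appears quantile-normalized, by a method not given in the sources used here. Control spots were left out, outlier spots set missing, spots of a probe averaged, and log2 taken minus the array's 75th percentile. Probes well above background on all 3 arrays of at least 1 group were kept (22524 of 41174), and the brightest stood for its gene. limma 3.58.1 (R 4.3.3; lmFit, eBayes, two-sided) fitted 4 group means on 12 arrays without a block. The Benjamini-Hochberg adjustment ran over 15226 genes in each of 5 comparisons, with a threshold of 0.05. An exact test of 3 against 3 cannot go below 0.1. The fit was tested on simulated data. Python 3.11.15 drew the figures.

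Every member is accounted for, called members are named, and of each further list up to 4 called genes with the smallest adjusted p are named in a comparison. Members and lists were chosen with earlier results of these data known. Deviations of WT arrays with the same number correlated in all 3 pairs (r = 0.305, 0.107 and 0.232), of which pair 1 shared a slide. KO pairs gave 0.0899, 0.0153 and 0.175, of which pair 3 shared a slide. KO control replicate 1 and KO denervated replicate 2, which differ in number but shared a slide, gave 0.108.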

Additional observations from a re-analysis of the deposited data

Results flagged for a closer look

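The change of Hjurp with denervation differed between KO and WT muscle by 2.45 (log2) in limma's test of that difference (adjusted p = 0.0444). Hjurp was above the WT denervated range on all 3 KO denervated arrays. The adjusted p lay between 0.0555 and 0.247 in the settings where the call was lost, and the cause of the loss was not tested.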

How the results depend on the processing

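The alternatives were quantile normalization, the array median, normexp background correction, no filter on dim probes, a filter on all 12 arrays, the authors' deposited table, the slide as a fixed or random block, the replicate number as a block within or across genotypes, the mean of a gene's probes, and leaving out each array. No called result of a member changed sign. Among differences not called, leaving out 1 array turned the sign of some: Ccnd1 (-0.34 to 0.12), Mcm5 (-0.21 to 0.30) and Cdc20 (-0.26 to 0.26) in KO and Mki67 (-0.41 to 0.09) in WT were among them. With normexp, 1909 genes were called for denervation in WT, 2719 in KO and 25 between genotypes in denervated muscle, where no filter gave 203; 4 members were called in KO and 1 between genotypes. For control muscle, genes called between genotypes numbered 5 with quantile normalization, the median or the authors' table, 4 with the probe mean, 2 with the strict filter or the random slide block, and 0 with normexp, no filter, the fixed slide block or the replicate block across genotypes. For the interaction, genes called numbered 0 with normexp, 5 with no filter, 12 with the strict filter, 4 with the fixed slide block and 9 with the replicate block within genotype. Members called there numbered 2 with quantile normalization or the authors' table, and 0 with the median, normexp, no filter, the fixed slide block, the replicate block of either kind or the probe mean; the cause was not tested. With the replicate block within genotype, 6 members were called in WT and 11 in KO, where Ccna2, Ccnb2 and Plk1 were added and Pcna lost. Leaving out 1 array gave 4812 to 6124 genes in WT, 6101 to 7221 in KO, 0 to 2 in control muscle, 152 to 324 in denervated muscle and 5 to 51 for the interaction, with 4 to 5, 8 to 13, 0, 2 to 3 and 0 to 1 members. Signal over background limits Mki67 and Plk1 on 1 KO control array.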

Other observations

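Marker lists of the remaining cell types gave these counts, beside 39.3% of all genes called for denervation in WT and 46.9% in KO. Of 10 muscle fibre genes, Ckm fell in WT (by 1.35 ± 0.17), and 6 fell in KO muscle, Ckm by 1.93 ± 0.17 and Mylpf by 0.95 ± 0.27 among them. Among 11 endothelial markers Kdr, the VEGF receptor, fell by 1.33 ± 0.20 in WT and by 1.27 ± 0.20 in KO, and Tek by 1.17 ± 0.20 and 1.09 ± 0.20. Of 11 fibroblast and progenitor markers 3 fell in WT and none was called in KO. Of 10 Schwann cell markers 1 rose and 5 fell in WT, and 1 rose and 6 fell in KO. Of 7 smooth muscle and pericyte markers 3 fell in WT and 2 in KO. All 3 tested erythroid genes fell in both genotypes, and of 9 granulocyte and mast cell markers 2 fell in WT and 5 in KO. Of 6 T and B cell markers 2 fell in WT, and 1 rose and 2 fell in KO. None of 5 adipocyte markers was called. Besides Fgfr4, no marker was called between genotypes in either condition.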
